A study of Rattus norvegicus with 12 samples.

Results

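The lipoxygenase pathway genes described here are 7 of the 14506 named genes measured in cultured rat kidney cells: Alox15b, Alox15, Alox12, Alox5, Alox5ap, Lta4h and Ltc4s. They were chosen by name as pathway genes around Alox15b, and Alox15b itself was selected on its measured 300 against 640 difference at 24 h in earlier results of these data. All 7 were found, each with 1 probe set carrying a single gene symbol. The cells were primary cultures from the inner medullary collecting duct (IMCD) of male SD rats 7 weeks old, and all of them were first kept for 4 d at 640 mOsm/kg. They then spent 48 h or 24 h in medium reduced to 300 mOsm/kg, while the cells set against them stayed at 640 mOsm/kg. This gave 4 groups of 3 arrays: 300 at 48 h, 640 at 48 h, 300 at 24 h and 640 at 24 h. Total RNA was read on Affymetrix Rat Gene 1.0 ST arrays, and levels are given as log2 values. The labels do not say whether the 3 replicates of a group came from separate rats or dishes, and the p-values may thus reflect technical spread alone.

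Lipoxygenases are iron enzymes that add oxygen to arachidonate and related fatty acids once phospholipases have set these free. Alox5, helped by its partner Alox5ap, starts the leukotriene branch, in which Lta4h makes leukotriene B4 and Ltc4s joins leukotriene A4 to glutathione. Alox15, Alox12 and Alox15b make hydroperoxides that are reduced to hydroxy fatty acids or built into lipoxins. In human, ALOX15B is known from epithelia such as prostate and skin and from macrophages. The inner medulla is the part of the kidney where cells live in concentrated fluid, and the transcription factor Nfat5 turns on many genes of that adaptation. In the RefSeq gene order of GRCr8, Alox15b lies on chromosome 10 between Alox12b and Gucy2d, with Aloxe3 just beyond Alox12b and Rpl37al1. Alox12, Alox12e and Alox15 follow one another elsewhere on the same chromosome.

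Promoters were searched for TGGAAA, the core letters of the tonicity element that Nfat5 binds, on both strands, the reverse reading being TTTCCA. The window ran from 250 bases before to 50 bases after the gene start in RefSeq (GRCr8), 300 bases in all, and 7604 of 33469 such windows (22.7%) held the letters at least once. Of the 7 lipoxygenase pathway genes 4 had a window (Alox12, Alox5, Lta4h and Ltc4s), and 1 of these, Ltc4s, held the letters. Alox15b, Alox15 and Alox5ap had no window, so the search says nothing about them. Outside the 7, Alox12e held 1 forward and 3 reverse matches, and Aloxe3 and Alox12b held none. Of the 5 genes whose pattern over the arrays was nearest to that of Alox15b (described further on), 4 had a window and 1, Serpina3n, held the letters, with 2 matches on the reverse strand. Ltc4s is shown as the pathway member with a match (chr10:35063545-35063844, minus strand), Serpina3n as the nearest-pattern gene with matches (chr6:129088142-129088441, plus strand), and Aqp1 (chr4:85812534-85812833, plus strand) and Muc1 (chr2:176933500-176933799, plus strand) as nearest-pattern genes without one. Capitals mark the searched letters, and a match is a description of the sequence only.
Ltc4s: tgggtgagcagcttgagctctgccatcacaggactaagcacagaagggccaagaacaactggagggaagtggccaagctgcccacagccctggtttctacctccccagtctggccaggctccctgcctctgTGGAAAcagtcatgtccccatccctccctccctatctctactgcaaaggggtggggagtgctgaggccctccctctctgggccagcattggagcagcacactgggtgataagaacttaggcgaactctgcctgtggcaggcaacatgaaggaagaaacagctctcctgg
Serpina3n: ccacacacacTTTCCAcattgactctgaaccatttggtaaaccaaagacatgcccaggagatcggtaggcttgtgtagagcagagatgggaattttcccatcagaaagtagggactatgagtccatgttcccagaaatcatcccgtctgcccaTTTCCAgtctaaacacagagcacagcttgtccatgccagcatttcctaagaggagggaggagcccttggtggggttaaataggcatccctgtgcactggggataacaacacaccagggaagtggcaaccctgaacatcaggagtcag
Aqp1: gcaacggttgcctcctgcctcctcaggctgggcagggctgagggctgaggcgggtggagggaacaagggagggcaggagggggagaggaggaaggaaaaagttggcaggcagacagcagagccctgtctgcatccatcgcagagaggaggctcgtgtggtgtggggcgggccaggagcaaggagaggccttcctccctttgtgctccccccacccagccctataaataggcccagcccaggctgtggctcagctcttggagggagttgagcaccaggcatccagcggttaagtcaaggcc
Muc1: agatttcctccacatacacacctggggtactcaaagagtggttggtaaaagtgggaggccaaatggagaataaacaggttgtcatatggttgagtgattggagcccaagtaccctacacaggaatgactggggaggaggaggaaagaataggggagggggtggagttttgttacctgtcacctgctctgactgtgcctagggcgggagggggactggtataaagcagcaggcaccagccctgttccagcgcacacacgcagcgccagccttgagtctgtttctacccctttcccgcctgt

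The arrays were not on one common scale. Their medians over the named genes ran from 6.81 to 6.97 on the 6 arrays at 48 h and from 7.43 to 7.58 on 4 arrays at 24 h, while the other 2 arrays at 24 h (300 replicate 1 and 640 replicate 3) had medians of 6.89 and 6.90. Comparisons of 300 with 640 used the deposited values, with values centred on each array's median beside them. At 24 h each osmolality held 1 array of low median, so deposited values within a group mix unlike scales there. At both times 300 replicate 1 matched 640 replicate 3 best in its deviations from the group mean, 2 matched 2, and 3 matched 1. The 2 arrays of low median are one such match. All tests of 300 against 640 left these matches unpaired, so any spread they share stays in the errors. Comparisons of 48 h with 24 h used centred values because of the shift between times. Aqp2, the vasopressin-regulated water channel of principal cells, was read as a check of the treatment rather than of the cell label. Other principal cell genes stood at unlike levels. Aqp3, Aqp4, Slc14a2 and Gata3 lay above the array median on every array, and Scnn1a, Scnn1b, Scnn1g and Hsd11b2 below it. On the deposited scale Aqp2 averaged 7.10 ± 0.511 at 300 and 11.51 ± 0.092 at 640 after 48 h, and 7.31 ± 0.091 at 300 and 10.95 ± 0.737 at 640 after 24 h (SD, n = 3 each).

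Alox15b was lower in dilute medium at both times. After 48 h its log2 level was 7.28, 6.66 and 7.33 on the arrays at 300, against 9.60, 9.26 and 9.92 on the arrays at 640. After 24 h it was 6.36, 7.63 and 7.16 at 300, against 9.72, 9.22 and 8.72 at 640. The highest array at 300 lay below the lowest array at 640 at each time, so the groups did not overlap, and this held on centred arrays too. Over all genes 6.62% were lower without overlap on deposited values at 48 h and 2.69% at 24 h, and on centred arrays 7.02% and 4.86%.

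The group means on the deposited scale were 7.09 ± 0.374 at 300 and 9.59 ± 0.329 at 640 after 48 h (SD, n = 3 each). The change at 48 h was -2.50 ± 0.330 on the log2 scale (moderated SE, 95% interval -3.21 to -1.80), which is a 5.67-fold lower level. Alox15b fell by limma's test at 48 h, with an adjusted p of 0.00127 over all genes on the deposited values and 2.6e-05 on centred arrays. The gene had been chosen with earlier results of these data known, so this p is not independent support. Leaving out each array at 48 h in turn gave changes of -2.67 to -2.29 and adjusted p-values of 0.00416 to 0.0135.

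The 24 h difference chose the gene and is given as a description. Alox15b averaged 7.05 ± 0.642 at 300 and 9.22 ± 0.496 at 640 after 24 h (SD, n = 3 each), a difference of -2.17 ± 0.330 on the log2 scale (95% interval -2.88 to -1.47). Leaving out both 24 h arrays of low median gave a difference of -2.08, and leaving out single arrays moved it between -2.46 and -1.83. In RNA from a whole culture, fewer cells that make Alox15b and less of its RNA per cell cannot be told apart.

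**Figure D1:**
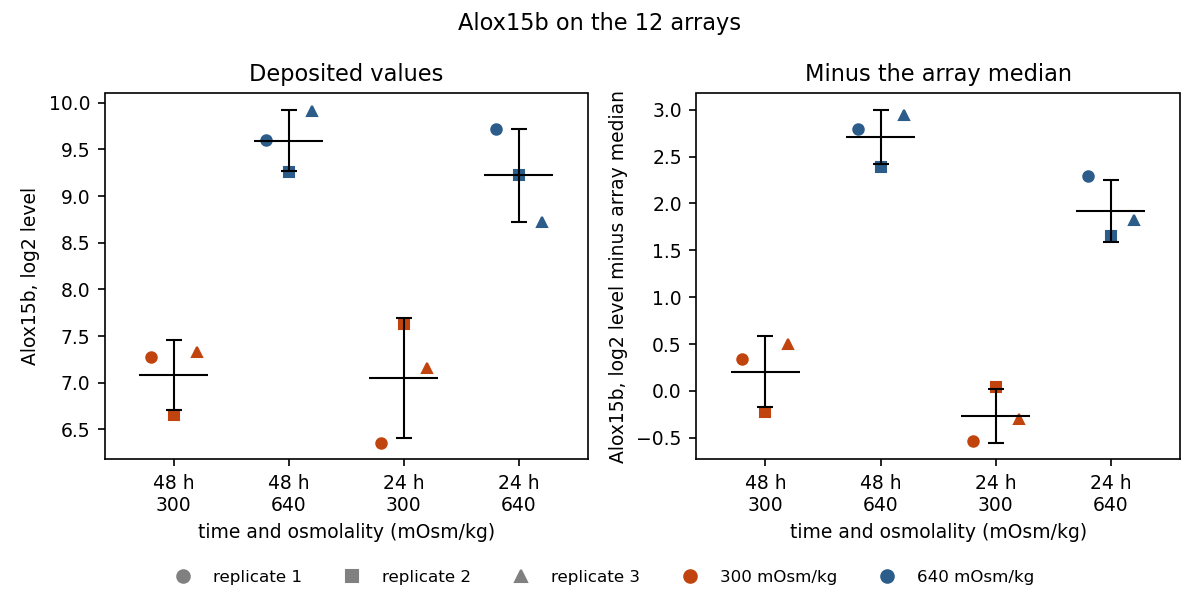
Log2 level of Alox15b on each of the 12 arrays, as deposited (left) and minus the array median (right), for 48 h at 300, 48 h at 640, 24 h at 300 and 24 h at 640 mOsm/kg. Horizontal lines are means and bars are SD of 3 arrays. All arrays at 300 lie below all arrays at 640 of the same time, with a highest deposited value of 7.63 at 300 and a lowest of 8.72 at 640 over both times.

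The osmolality effects on Alox15b at the 2 times were set side by side as a description, since the 24 h values that selected the gene enter their difference. The change at 48 h minus the change at 24 h was -0.33 ± 0.467 on the log2 scale (95% interval -1.33 to 0.67). Over all genes 0 of 14506 passed limma's test of that difference on deposited values, against 64 (0.441%) at an unadjusted p under 0.05 and 4 (0.0276%) that passed on centred arrays.

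Time itself was compared on centred arrays, where the 24 h arrays are again those that selected Alox15b. Alox15b minus the array median was 0.34, -0.22 and 0.50 at 48 h and 300, against -0.53, 0.04 and -0.30 at 24 h and 300. In cells kept at 640 it was 2.80, 2.39 and 2.94 at 48 h, against 2.29, 1.65 and 1.83 at 24 h. The arrays of the times overlapped at 300, and at 640 every array at 48 h lay above every array at 24 h, as for 4.95% of all genes. The change was 0.47 ± 0.237 at 300 (adjusted p = 0.677 by limma) and 0.79 ± 0.237 at 640 (95% interval 0.28 to 1.29, adjusted p = 0.429 by limma), so neither passed. On the deposited scale the same changes were 0.04 and 0.37. Ordered by centred mean, Alox15b stood highest at 48 h and 640 (2.71), then 24 h and 640 (1.92), 48 h and 300 (0.21) and 24 h and 300 (-0.26). Neighbours at the same osmolality in this order did not differ by the test, and the gap between the lowest array at 640 (1.65) and the highest at 300 (0.50) separated the osmolalities.

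Of the 7 genes, Alox15b alone passed in the 300 against 640 comparison at 48 h. The list was drawn around this gene, which earlier results of these data had selected, so its call is not a result about the pathway. None of the other members passed. Over all genes 104 of 14506 passed (0.717%), 79 of them fell (0.545%) and 25 rose (0.172%). On centred arrays 269 passed (1.85%), 193 that fell and 76 that rose, and again no member other than Alox15b passed. At 24 h, the comparison that had brought the gene forward, 13 genes passed (0.0896%), 11 of them fell (0.0758%) and 2 rose, against 95 (0.655%) on centred arrays, 55 that fell and 40 that rose. The median change of the 7 genes was -0.07 at 48 h, where the median of all genes was 0.02, and -0.14 at 24 h, where it was -0.02.

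**Figure D2:**
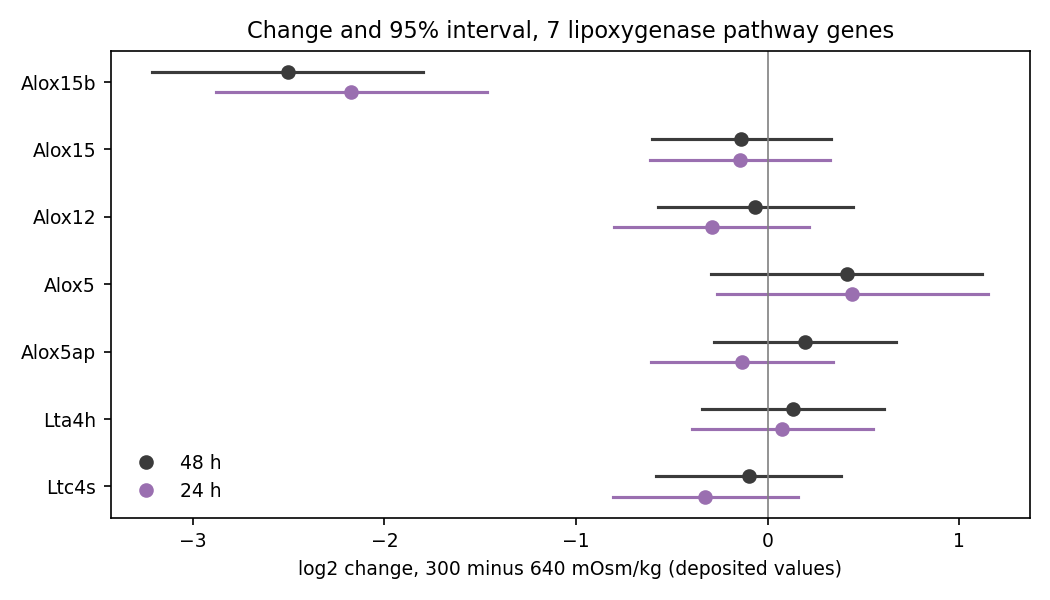
Log2 change, 300 minus 640 mOsm/kg, of the 7 lipoxygenase pathway genes on deposited values, with 95% intervals from limma, at 48 h (dark) and at 24 h (purple). Alox15b lies at -2.50 and -2.17, while the intervals of the other 6 genes include 0 at both times.

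The remaining oxygenases showed no change that passed. Alox15, which oxygenates free and membrane-bound fatty acids, had log2 levels of 5.27, 5.12 and 4.96 at 300 and 5.20, 5.20 and 5.35 at 640 after 48 h. These arrays overlapped on the deposited scale and, on centred arrays, lay lower at 300 without overlap, as did 7.02% of all genes. The change of Alox15 at 48 h was -0.14 ± 0.219 on the log2 scale (95% interval -0.61 to 0.33). Alox12, the lipoxygenase best known from platelets, had 3.50, 4.07 and 3.94 at 300 and 4.19, 3.91 and 3.61 at 640 after 48 h. Its groups overlapped at both times, and its change was -0.07 at 48 h and -0.29 at 24 h. Alox12 and Alox5ap belonged to the dimmest 30% of the named genes by mean value.

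Alox5, the oxygenase that starts leukotriene synthesis, had higher values at 300, opposite in sign to Alox15b, without passing the unpaired test. After 48 h its log2 level was 5.57, 5.95 and 5.44 at 300, against 5.05, 5.27 and 5.40 at 640. After 24 h it was 6.07, 7.29 and 7.06 at 300, against 6.19, 7.05 and 5.84 at 640. All arrays at 300 were above all arrays at 640 at 48 h, as for 7.13% of all genes, and the groups overlapped at 24 h. The change of 0.41 ± 0.331 at 48 h (95% interval -0.30 to 1.12) and of 0.44 ± 0.331 at 24 h (95% interval -0.26 to 1.15) did not pass, with an adjusted p of 1.00 by limma at each time. Leaving out both 24 h arrays of low median gave 0.55 at 24 h.

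The partner and the downstream enzymes of Alox5 did not pass either. Alox5ap, the membrane protein that presents arachidonate to Alox5, had 4.96, 5.10 and 5.15 at 300 and 5.13, 4.58 and 4.91 at 640 after 48 h, a change of 0.20 ± 0.222. Lta4h, which also works as an aminopeptidase, had 10.00, 9.62 and 9.71 at 300 and 9.58, 9.49 and 9.85 at 640, a change of 0.13 ± 0.222. Ltc4s had 5.64, 5.09 and 5.72 at 300 and 5.63, 5.43 and 5.71 at 640, a change of -0.10 ± 0.226. The arrays of all 3 genes overlapped between osmolalities at both times, and at 24 h their changes were -0.14, 0.08 and -0.33. For Alox15, Alox12, Alox5ap, Lta4h and Ltc4s the 95% intervals of both times lay within a log2 change of 1 in either direction, the widest bound being -0.81 for Ltc4s at 24 h. The adjusted p of each of these genes was 1.00 by limma at both times.

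**Figure D3:**
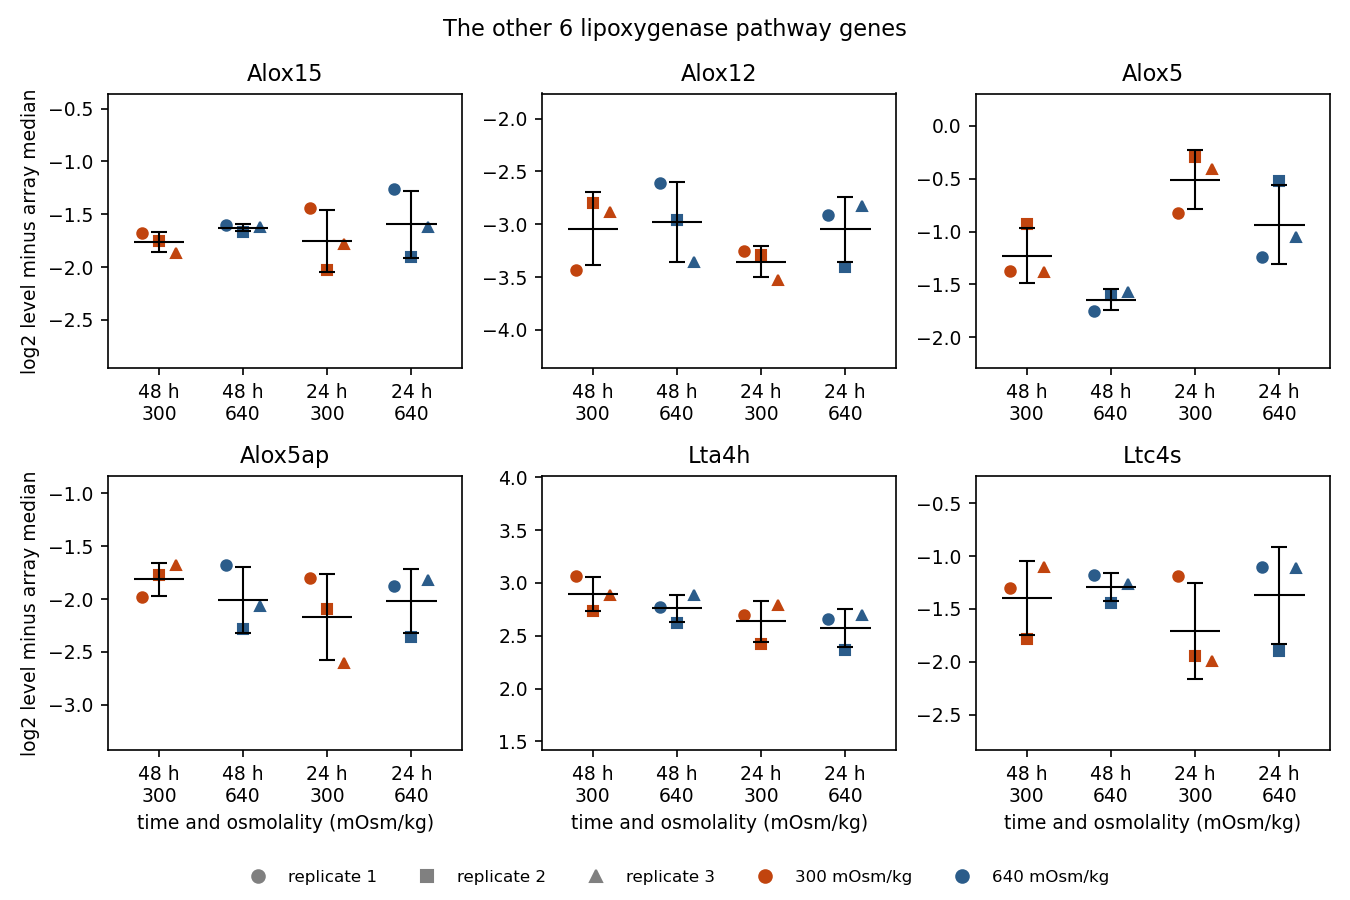
Log2 level minus the array median of Alox15, Alox12, Alox5, Alox5ap, Lta4h and Ltc4s on each array, for 48 h at 300, 48 h at 640, 24 h at 300 and 24 h at 640 mOsm/kg. Lines are means, bars are SD of 3 arrays, and each panel has its own axis of equal span. Alox5 is lower at 48 h than at 24 h at each osmolality, and the groups of Alox12, Alox5ap, Lta4h and Ltc4s overlap.

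Over time Alox5 had the largest fitted changes of the 7 genes at 300. On centred arrays it was -1.37, -0.93 and -1.39 at 48 h and 300, against -0.82, -0.30 and -0.40 at 24 h and 300. At 640 it was -1.76, -1.60 and -1.57 at 48 h, against -1.24, -0.52 and -1.05 at 24 h. Every array at 48 h was below every array at 24 h of its osmolality, as for 4.85% of genes at 300 and 4.63% at 640. The change was -0.72 ± 0.211 at 300 and -0.71 ± 0.211 at 640, with adjusted p-values of 0.253 and 0.429 by limma, so neither passed. Leaving out both 24 h arrays of low median gave changes of -0.88 (adjusted p = 0.0682) and -0.77 (adjusted p = 0.175). In these time comparisons 0 of the 7 genes passed, where 37 of 14506 (0.255%) passed at 300 and 20 (0.138%) at 640. With the replicate number as a block 92 genes passed at 300, and again none of the 7.

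Blood cells and other kidney cells also express lipoxygenases, so their marker lists are given beside these results. Their summed level is given as log2 of the summed deposited values, lowest to highest array. At 48 h 12 of 14 measured macrophage markers were lower at 300, with a median change of -0.27 and summed levels of 10.44 to 11.13 at 300 against 10.80 to 11.41 at 640. At 24 h 10 of 14 were lower, with 10.03 to 11.39 at 300 against 10.36 to 11.56 at 640. No macrophage marker passed on deposited values at either time, and Csf1r, the receptor of macrophage growth factor, passed at 48 h on centred arrays alone (-0.69, adjusted p = 0.0288 by limma). Of 13 granulocyte and mast cell markers 6 were lower at 48 h, with a median change of 0.02, and 10 at 24 h, with a median of -0.11. Over all genes 45.8% had a fitted change below 0 at 48 h and 55.7% at 24 h.

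Of 5 platelet markers 4 were lower at 48 h and 5 at 24 h, with medians of -0.03 and -0.08. Of 7 endothelial markers 7 were lower at 48 h, with a median change of -0.42 and summed levels of 8.84 to 9.18 at 300 against 9.37 to 9.88 at 640, and 6 of 7 were lower at 24 h (median -0.21). None passed on deposited values, and Emcn, an endothelial sialomucin, passed at 48 h on centred arrays alone (-1.32, adjusted p = 0.0355 by limma). Of 10 principal cell genes 4 fell at 48 h (Aqp2, Aqp3, Avpr2 and Slc14a2), where 0.545% of all genes fell, with summed levels of 11.70 to 11.81 at 300 against 13.10 to 13.17 at 640. Of 6 markers of the loop of Henle 6 were lower at 48 h (median -0.60) and 5 at 24 h (median -0.67). Summed levels at 48 h were 9.64 to 9.77 at 300 against 11.54 to 11.79 at 640. At 48 h 1 of them, Aqp1, fell on deposited values and 2 fell on centred arrays. Aqp1 is also among the genes nearest to Alox15b, given below. Of 8 general epithelial markers 2 were lower at 48 h, of 6 intercalated cell markers 2 and of 5 markers of stratified epithelium 1, and none of these passed. Array values have no zero, so the absence of a marker could not be read. Between the times on centred arrays 12 of 14 macrophage markers were higher at 48 h in cells at 300 (median 0.59) and 13 of 14 in cells at 640 (median 0.54), against medians of all genes of 0.05 and 0.0018. At each osmolality 8 of them had an unadjusted p under 0.05 and 0 passed limma's test. Of all genes 7.62% had such an unadjusted p at 300 and 6.58% at 640. All 7 fibroblast markers were higher at 48 h at each osmolality. Over all genes the fitted change with time was below 0 for 41.4% at 300 and 49.7% at 640. Of the fibroblast markers 3 passed: Col1a1, Pdgfrb and Dcn rose at each osmolality, Dcn by 1.29 at 300 and 1.31 at 640. Over all genes 0.165% rose at 300 and 0.138% at 640. The part of these cell types in the levels of Alox15b and Alox5 was not tested.

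The genes with a pattern most like that of Alox15b were found by the root mean square difference of log2 values over the 12 arrays, after each array was centred on its median and each gene on its mean. The 5 nearest were Prss35, a protease-like secreted protein (0.331), the water channel Aqp1 (0.339), the membrane mucin Muc1 (0.344), the Ras-like Rasl10a (0.346) and the serine protease inhibitor Serpina3n (0.370). Among 14505 other genes Ltc4s ranked 1160, Alox12 1811, Alox15 2416, Alox5ap 6831, Lta4h 7614 and Alox5 14357. Of the pathway genes Ltc4s had the smallest distance (1.14) and Alox5 the largest (1.59), against 0.331 to 0.370 for the 5 nearest genes. The rank of Ltc4s thus does not mean a pattern like that of Alox15b.

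Prss35 had log2 levels of 7.76, 7.06 and 7.43 at 300, against 10.21, 9.78 and 10.67 at 640 after 48 h. Serpina3n had 8.43, 7.72 and 8.10 at 300, against 11.02, 11.13 and 11.19 at 640 after 48 h. Muc1 had 9.09, 8.83 and 8.99 at 300, against 11.20, 11.40 and 11.27 at 640 after 48 h. In each of these genes the osmolalities were fully apart at 48 h, where 6.62% of all genes were lower at 300 without overlap. Selection by likeness to Alox15b, whose own groups were apart, favours such genes. Their changes at 48 h were -2.80, -3.03 and -2.32, and those of Aqp1 and Rasl10a were -2.48 and -1.94. At 24 h the changes of Prss35, Aqp1, Muc1, Rasl10a and Serpina3n were -2.78, -1.98, -1.62, -1.84 and -2.92. Since likeness to Alox15b selected these genes, the values describe them and no test is given.

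**Figure D4:**
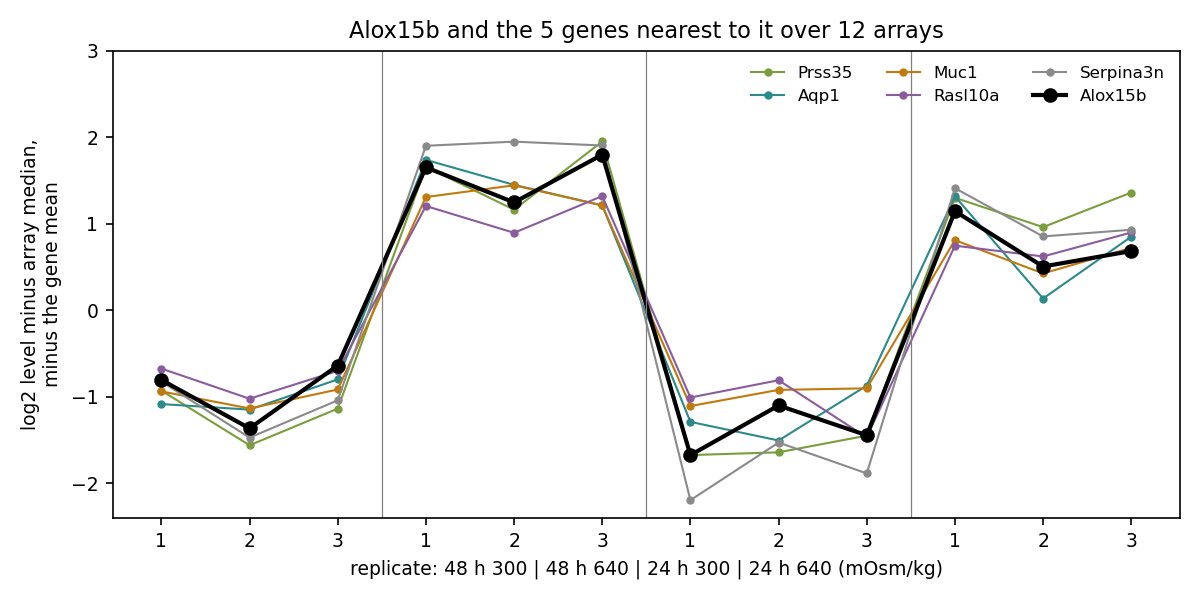
Log2 level minus the array median and minus the gene's own mean on each of the 12 arrays, for Alox15b (black) and the 5 genes nearest to it. Groups run 48 h at 300, 48 h at 640, 24 h at 300 and 24 h at 640 mOsm/kg, with replicates 1 to 3 in each. All 6 genes lie below 0 on the 6 arrays at 300 and above 0 on the 6 arrays at 640.

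The further genes of arachidonate metabolism numbered 55 measured, in 5 lists. The lipoxygenase relatives next to the members on the chromosome did not pass: Aloxe3, Alox12b and Alox12e had changes of -0.05, -0.03 and 0.12 at 48 h and of -0.06, -0.02 and -0.03 at 24 h. Aloxe3 and Alox12b are the lipoxygenases of the skin barrier, and Alox12b is the gene beside Alox15b.

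Arachidonate release and re-esterification counted 13 measured genes, of which 10 were lower at 48 h and 0 passed at either time. Over all genes 0.717% passed at 48 h and 0.0896% at 24 h. Its median change was -0.18 at 48 h, against 0.02 for all genes, and -0.14 at 24 h, against -0.02 for all genes. The largest value belonged to Mboat7, which returns arachidonate to phosphatidylinositol. Mboat7 had 9.43, 9.54 and 9.36 at 300, against 10.55, 10.93 and 10.63 at 640 after 48 h. It was lower at 300 without overlap, as were 6.62% of all genes. Its change of -1.26 ± 0.328 had an adjusted p of 0.150 by limma on deposited values and 0.00275 on centred arrays. In the fit of the 48 h groups alone, on deposited values, it was 0.0042, so the call differed with the scale and with the model. Pla2g4a, the cytosolic phospholipase that frees arachidonate, and Acsl3, which activates fatty acids, had -0.49 and -0.45 at 48 h and did not pass.

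Among 17 measured genes of hydroperoxide reduction and leukotriene conversion, 1 fell and 0 rose at 48 h, where 0.545% of all genes fell and 0.172% rose. The gene that fell was Abcc4, an exporter of cyclic nucleotides, prostaglandins and leukotrienes. Its log2 level was 7.91, 7.39 and 7.43 at 300, against 9.00, 9.27 and 9.56 at 640 after 48 h. After 24 h it was 7.91, 8.31 and 8.40 at 300, against 9.33, 9.24 and 8.99 at 640. The groups did not overlap at either time. Over all genes 6.62% were lower at 300 without overlap at 48 h and 2.69% at 24 h. Abcc4 fell by 1.70 at 48 h (SE 0.223, adjusted p = 0.00125 by limma, 3.26-fold lower). At 24 h its change was -0.98, with an adjusted p of 0.204 on deposited values and 0.0214 on centred arrays, and -0.93 without both 24 h arrays of low median. The difference between times was -0.73 ± 0.315 with an adjusted p of 1.00. Abcc1, a leukotriene C4 exporter, had -0.55 at 48 h and did not pass.

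Ptgr1, a reductase that inactivates leukotriene B4 and prostaglandins, moved with time. On centred arrays it was 2.31, 2.80 and 2.41 at 48 h and 300, against 3.84, 4.21 and 4.01 at 24 h and 300. At 640 it was 2.92, 3.47 and 2.93 at 48 h, against 3.56, 3.55 and 3.20 at 24 h. At 300 the times were far apart and Ptgr1 fell by 1.51 (SE 0.201, adjusted p = 0.00395 by limma). On deposited values the change was -1.95 with an adjusted p of 0.0607, and on centred arrays without both 24 h arrays of low median it was -1.60 with 0.00997. At 640 the arrays overlapped and the change of -0.33 did not pass. Its 300 minus 640 change was -0.60 at 48 h and 0.60 at 24 h, and the test of that difference gave -1.20 ± 0.440 with an adjusted p of 1.00.

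Of 11 receptors of lipoxygenase products 0 passed on deposited values, where 0.717% of all genes passed at 48 h and 0.0896% at 24 h. Their median changes were 0.04 at 48 h and -0.07 at 24 h. Pparg, a nuclear receptor that oxidised fatty acids can bind, had 6.91, 7.04 and 6.77 at 300, against 5.82, 6.30 and 6.29 at 640 after 48 h. Its arrays at 300 were all above those at 640, as for 7.13% of all genes. The change of 0.77 ± 0.292 had an adjusted p of 0.661 on deposited values and 0.0428 on centred arrays by limma. Gpr18, a receptor for a resolvin, had 0.37 and Ppara, a fatty acid receptor of the nucleus, had -0.25 at 48 h.

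The cytochrome P450 branch, which makes epoxides and omega-hydroxy acids from the same arachidonate, counted 11 measured genes. Of these 1 rose at 24 h and 0 passed at 48 h. Over all genes 2 of 14506 (0.0138%) rose at 24 h and 0.717% passed at 48 h. The gene that rose was Cyp1b1, which oxidises steroids, fatty acids and xenobiotics. Its log2 level was 6.29, 6.11 and 6.20 at 300, against 5.33, 5.38 and 5.65 at 640 after 48 h. After 24 h it was 7.05, 7.46 and 7.44 at 300, against 6.01, 6.31 and 5.84 at 640. The groups did not overlap at either time. Over all genes 7.13% were higher at 300 without overlap at 48 h and 1.59% at 24 h. Cyp1b1 rose by 1.26 ± 0.198 at 24 h (adjusted p = 0.0178 by limma), and at 48 h its change of 0.75 had an adjusted p of 0.160 on deposited values and 0.0196 on centred arrays. The 24 h call was lost when any 1 of 4 arrays was left out (300 replicates 2 and 3, 640 replicates 1 and 3), with adjusted p-values of 0.110, 0.154, 0.135 and 0.0675, and it held without both 24 h arrays of low median (1.28, adjusted p = 0.0216). Cyp2j4, an epoxygenase, and Ephx2, which opens the epoxides, had 0.73 and 0.46 at 48 h and did not pass.

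**Figure D5:**
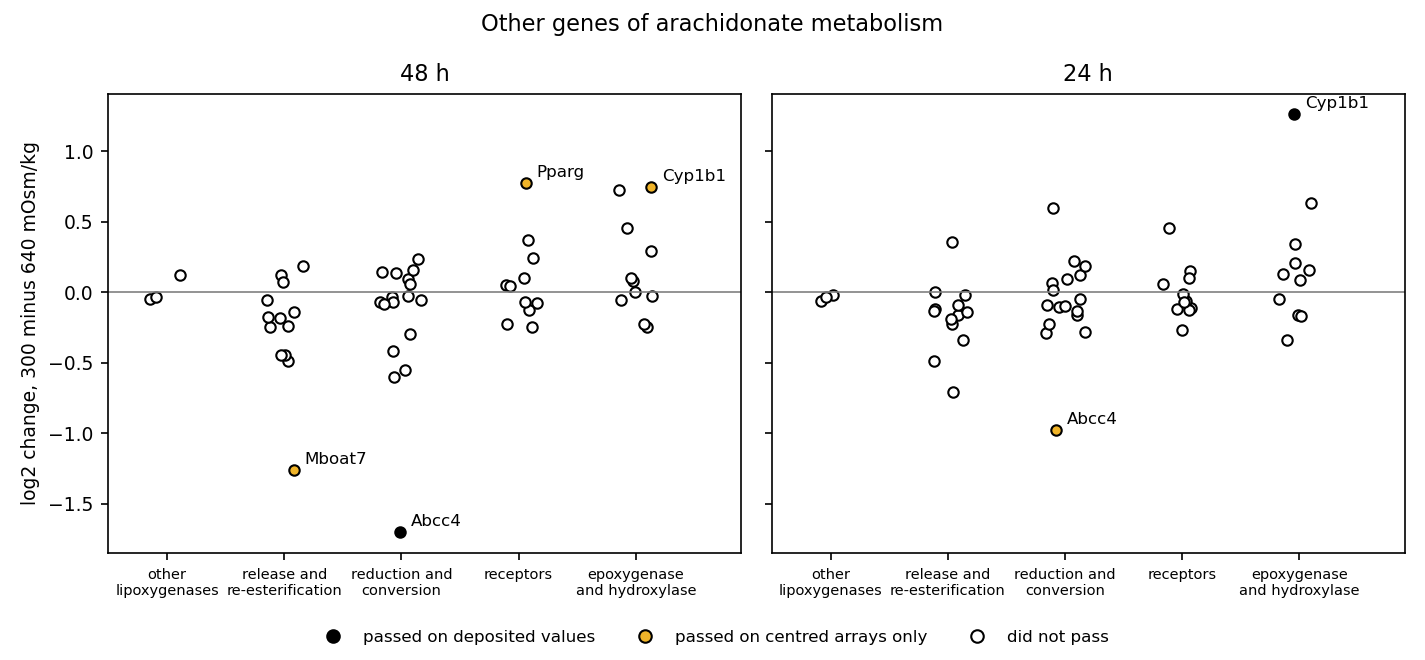
Log2 change, 300 minus 640 mOsm/kg, of 55 further genes of arachidonate metabolism in 5 lists at 48 h (left) and 24 h (right), 1 point a gene. Black points passed limma's test on deposited values, yellow points on centred arrays alone, and white points on neither. Abcc4 at -1.70 (48 h) and Cyp1b1 at 1.26 (24 h) are the black points.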

How the data were processed

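The 7 lipoxygenase genes and all gene lists were chosen with earlier results of these data known. The authors deposited 1 table of log2 values for 27596 probe sets on 12 arrays, made with RMA in Affymetrix Power Tools per the submitters' processing notes, which give no version. RMA sets a background and a common distribution, yet the array medians differ, which shifts comparisons over time. Titles set the groups and replicate numbers. In 2 groups the descriptions' short codes give other osmolalities than titles, treatment labels and design text, which were followed.

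Of the probe sets 15310 had 1 symbol, 323 several and 11963 none in the platform's gene table, and 15279 matched the RefSeq gene table by Entrez identifier. The probe set with the highest mean stood for each gene, which left 14506 genes. limma 3.58.1 in R 4.3.3 fitted 1 mean per group over 12 arrays (8 residual degrees of freedom), with Benjamini-Hochberg adjusted p under 0.05 as the threshold. Comparisons of 300 with 640 used deposited log2 values, and comparisons of 48 h with 24 h values minus each array's median. The fit and the measure of likeness were tested on simulated data. The number of arrays limits the precision.

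Named were the 7 genes, the 5 nearest to Alox15b, and of each further list every gene called at either time and the 3 with the largest change at 48 h, besides markers and Aqp2. Ptgr1's change with time was described after its values were seen. Deviations from group means of same-numbered arrays correlated at 0.459, 0.426 and 0.116 between 48 h and 24 h at 300, which by the rule used (all over 0.1) pairs them there from the data, not the labels. The other comparisons had at least 1 value under 0.1, so numbers do not pair them. Alternatives were other scales and normalizations, a filter on dim genes, another variance prior, testing every probe set, fitting the compared groups alone, the replicate block, leaving out single arrays and, chosen after seeing the data, leaving out the 2 arrays at 24 h with low medians. Coordinates and sequences are from RefSeq, GRCr8.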

Additional observations from a re-analysis of the deposited data

How the results depend on the processing

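The fall of Alox15b at 48 h kept its direction and passed the test in every alternative run. Its 24 h difference, a description, ran from -2.46 to -1.83 with single arrays left out. The call of Cyp1b1 at 24 h ended in the fit of only the groups compared (adjusted p = 0.652), and Mboat7 at 48 h passed in that fit (0.0042), with cyclic loess (0.00462) and with the replicate block (0.0418). The counts of genes called depended on the scale. For 300 minus 640 at 48 h, 104 genes became 269 on centred arrays, 304 with cyclic loess, 217 with only the groups compared, and 51 to 66 with single arrays left out. At 24 h, 13 became 95 on centred arrays, 98 with cyclic loess, 3 with only the groups compared, 20 without the 2 arrays with low medians, and 4 to 24 with single arrays left out. For the difference between times, 0 became 4 on centred arrays, 2 with cyclic loess, 1 with trend and robust settings, 1 without the low pair and 0 to 3 with single arrays left out. For 48 h minus 24 h at 300, 37 became 0 on deposited values, 219 without the low pair and 7 to 38 with single arrays left out. At 640, 20 became 0 on deposited values, 34 without the low pair and 6 to 15 with single arrays left out. With the replicate number as a block the counts were 118 at 48 h, 22 at 24 h and 2 for the difference. For time they were 92 at 300 and 35 at 640. The block changed no call of the 7 members. It joins same-numbered arrays of all groups, so it cannot show what pairing 300 with 640 arrays would give. Correlations of same-numbered 300 and 640 arrays were -0.231, 0.795 and -0.222 at 48 h. At 24 h they were -0.125, 0.844 and -0.206, so the numbers do not pair these groups. Under other numbers the arrays did match. The best match of 300 replicate 1 was 640 replicate 3 (0.780 at 48 h, 0.825 at 24 h). That of 300 replicate 3 was 640 replicate 1 (0.631 at 48 h, 0.576 at 24 h), and replicate 2 matched replicate 2. No test with these matches as pairs was run. The cause of the shifts in the counts was not tested.

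Changes that reversed belonged to members that did not pass. On deposited values the changes with time at 300 were -0.12 for Alox12, -0.076 for Alox5ap, -0.17 for Lta4h and -0.12 for Ltc4s, and at 640 they were -0.35, -0.41, -0.23 and -0.34. This follows the shift of all genes between times on that scale, a median of -0.38 at 300 and -0.42 at 640. Alox15 had a difference between times of -0.028 with cyclic loess and a change with time at 300 of 0.14 without the low pair. With single arrays left out, the 24 h changes spanned -0.36 to 0.087 for Alox15, -0.31 to 0.0095 for Alox5ap and -0.077 to 0.26 for Lta4h, and the 48 h changes -0.21 to 0.10 for Alox12 and -0.22 to 0.10 for Ltc4s. The differences between times spanned -0.22 to 0.22 for Alox15, -0.40 to 0.23 for Alox5 and -0.12 to 0.21 for Lta4h. Changes with time spanned -0.15 to 0.14 for Alox15 at 300, and at 640 -0.19 to 0.13 for Alox15, -0.11 to 0.26 for Alox12, -0.16 to 0.15 for Alox5ap and -0.19 to 0.21 for Ltc4s. The filter on dim genes removed Alox12 and Alox5ap, which have no value there. The 5 genes nearest to Alox15b are the same 5 on deposited values, at the same distances. The array median cancels in the difference between any pair of genes on an array, so this comparison cannot test dependence on the scale. The arrays carry no detection call, so a lower limit for the dim members is unknown.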
